A study of Danio rerio with 17 samples.

Results

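The subject is a set of 9 transcription factor genes of vertebrate surface epithelium, described across cells of the adult zebrafish epidermis. They were chosen by symbol, each matching 1 of 35117 gene identifiers in the deposited tables, and are tp63, grhl1, grhl2b, grhl3, ovol1a, elf3, klf4, tfap2a and tfap2c. Fluorescent cells had been picked by hand, amplified by SMART-seq2, which makes full-length complementary DNA from little RNA, and sequenced as paired reads of 150 bases. The 17 libraries form 5 groups with 3 or 4 replicates from independent experiments. MLCs (4 libraries) came from adult fish with 2 transgenes, hsp70:mCherry-T2a-CreERT2, a heat-shock-driven recombinase, and mpeg1:loxP-DsRedx-loxP-GFP, a color-switching reporter driven by the macrophage gene mpeg1. Keratinocytes (3 libraries) came from adult Tg(krt4:lyn-GFP) fish, in which the promoter of the surface keratin gene krt4 drives the reporter. cLCs (4 libraries) came from the same double transgenic line as MLCs, neutrophils (3 libraries) from adult Tg(lyz:GFP) fish and T cells (3 libraries) from adult Tg(lck:DsRedx) fish. The sources used here give neither the full names of MLCs and cLCs, nor which fluorescence was picked for each of them, nor the number of cells in a library.

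These genes encode DNA-binding proteins that work at successive steps of epidermal life. In mammals and fish p63 specifies surface ectoderm and maintains the basal layer, the AP-2 proteins act in ectoderm and neural crest, and the Grainyhead-like proteins switch on genes of junctions and of the barrier. Ovol, Klf4 and Elf3 proteins act mostly in cells that are leaving the basal layer or line a surface. None of the 9 is regarded as a hallmark of leukocytes, although Klf4 also acts in mammalian monocytes.

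Total gene counts were 5837662 to 24596883 per library, and 4484 to 16921 genes had at least 1 count. Of the 17 libraries 4 (cLCs replicates 3 and 4, neutrophils replicates 2 and 3) had fewer than 6000 genes with a count. The reporter genes followed the labels. The macrophage gene mpeg1.1 had 862 to 1628 CPM (counts scaled to 1000000 of a TMM-adjusted library size) in MLCs and 3010 to 9898 CPM in cLCs, and at most 4.28 CPM elsewhere. The gene krt4 had 27.2 to 506 CPM in MLCs and 9511 to 48691 CPM in keratinocytes, against at most 24.6 CPM in the other groups. The neutrophil gene lyz had 1116 to 2276 CPM in neutrophils and at most 21.1 CPM elsewhere, and the T cell gene lck had 584 to 689 CPM in T cells and at most 25.7 CPM elsewhere. The general leukocyte gene ptprc, by contrast, had at most 0.399 CPM in MLCs and at most 0.0513 CPM in keratinocytes, against at least 271 CPM in every other library. The leukocyte markers as a list went otherwise in MLCs. Summed over 9 of them, ptprc included, the level was 19113 to 41127 CPM in MLCs and 22258 to 102549 CPM in cLCs. It was 4438 to 4894 CPM in keratinocytes, 6888 to 17593 CPM in neutrophils and 6089 to 6710 CPM in T cells. Such sums follow the most abundant markers, and 9, 3 and 3 of the 9 had a count in keratinocytes 1 to 3. In the edgeR fit described below, their median log2 fold change was -11.47 for keratinocytes versus T cells, beside -0.48 for all genes tested. For MLCs it was -0.95 versus neutrophils and -0.16 versus T cells, beside 1.08 and -0.09 for all genes tested. Fewer cells of a type and less RNA per cell cannot be told apart in such libraries.

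At least 1 count was found for 9, 3, 5 and 4 of the 9 genes in MLCs replicates 1 to 4, for 7, 9 and 8 in keratinocytes, for 4, 5, 0 and 1 in cLCs, for 2, 0 and 0 in neutrophils and for 2, 0 and 0 in T cells. At 100 counts or more, 3 genes were found in each MLC library and 7 in each keratinocyte library. In MLCs these 3 were elf3, tfap2c and grhl2b, except that grhl2b had 97 counts in replicate 1, where klf4 had 103. Thus 2 genes were high in both MLCs and keratinocytes, 1 was high in MLCs, 5 were high in keratinocytes, and tp63 was low in every group. Of the 5, klf4 also had 66.2 and 50.4 CPM in cLCs replicates 1 and 2.

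**Figure D1:**
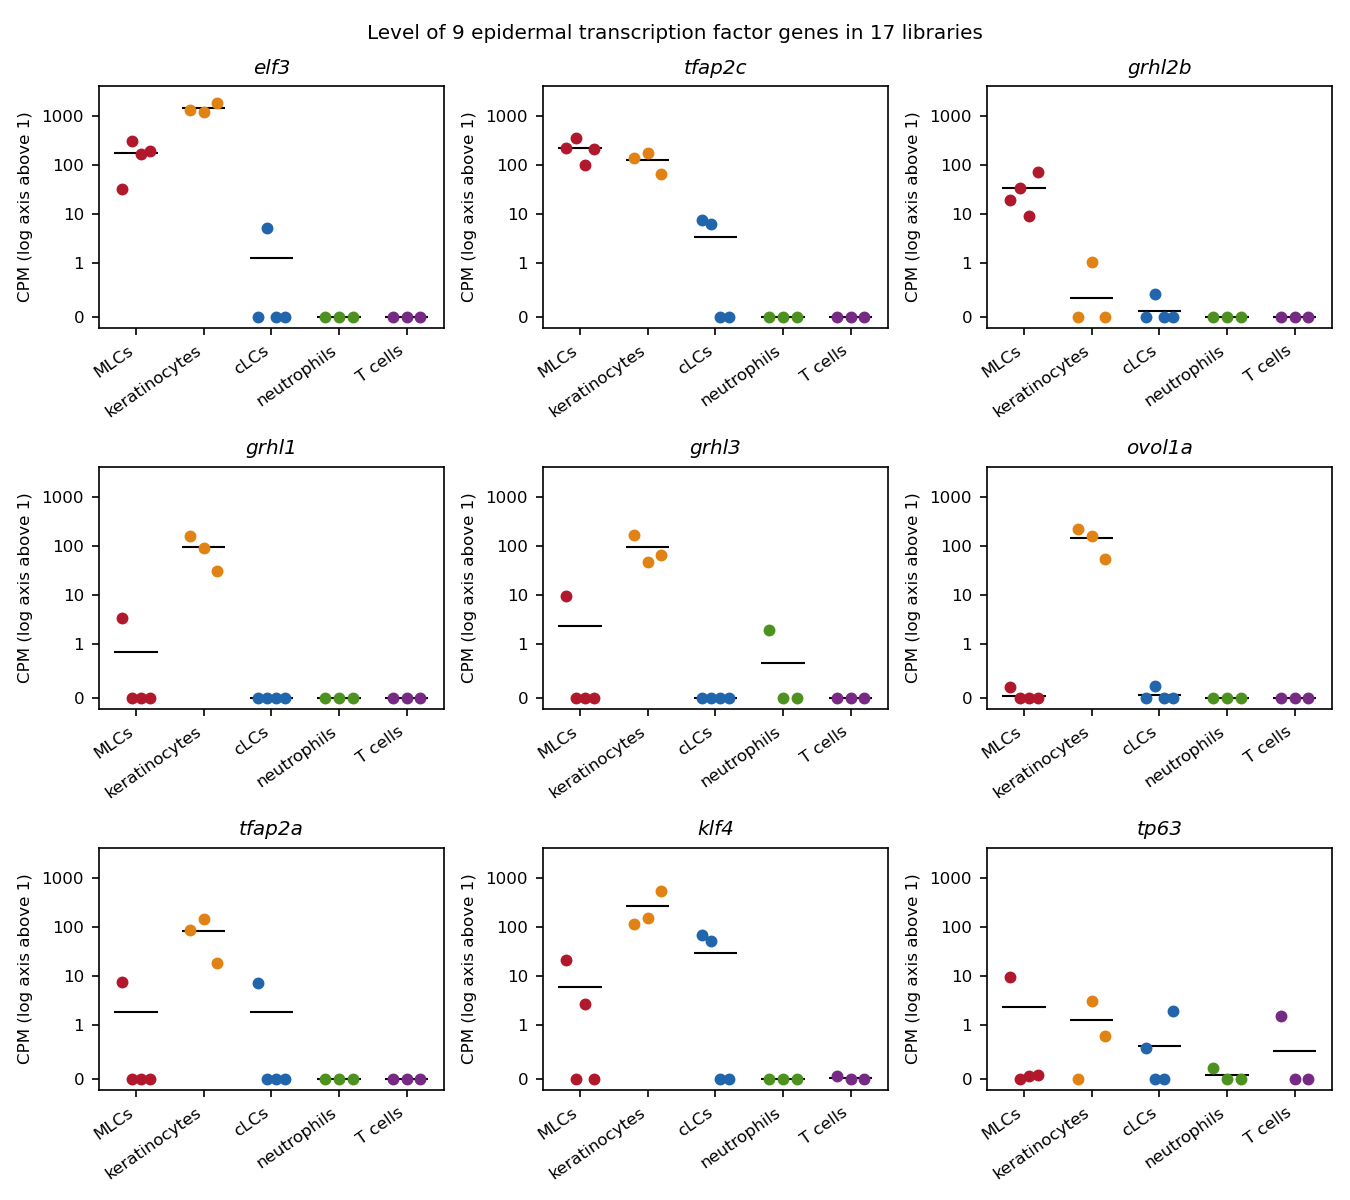
Level of each of the 9 genes in CPM (vertical axis, linear from 0 to 1 and logarithmic above 1) in 17 libraries of 5 groups, with 1 point per library and a horizontal line at the group mean. Points of elf3 and tfap2c stand high in MLCs and keratinocytes, those of grhl2b in MLCs, and those of grhl1, grhl3, ovol1a and tfap2a in keratinocytes.

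The Ets-family gene elf3, an activator of epithelial differentiation, had the highest TPM (the authors' length-scaled transcript abundance) of the 9 in all 3 keratinocyte libraries and in MLCs 2 to 4. It had 31.95, 305, 163 and 188 CPM in MLCs and 1299, 1166 and 1836 CPM in keratinocytes, against 0, 5.09, 0 and 0 CPM in cLCs and 0 counts in all 6 neutrophil and T cell libraries. No library of MLCs or keratinocytes overlapped with any of the other 3 groups, and MLCs lay below keratinocytes in every library. Of all tested genes, 7.80% had all MLC libraries above all cLC libraries. Shares of all genes for the other separations, here and for the genes below, are not given. In TPM elf3 ranked 132nd, 135th and 90th among the detected genes of keratinocytes 1 to 3. Its TPM ranks in MLCs 1 to 4 were 3120, 492, 788 and 678.

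The AP-2 gene tfap2c, which acts early in surface ectoderm, was the other shared gene. It had 215, 348, 97.4 and 210 CPM in MLCs and 135, 171 and 64.2 CPM in keratinocytes, against 7.57, 6.07, 0 and 0 CPM in cLCs and 0 counts in neutrophils and T cells. MLCs and keratinocytes overlapped with each other, and neither overlapped with the remaining groups. In TPM, tfap2c stood second of the 9 in MLCs 2 to 4, while in MLCs replicate 1 it stood first with 60.4 TPM and elf3 second with 20.9 TPM. In keratinocytes tfap2c ranked 7, 5 and 5 of the 9.

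The Grainyhead-like gene grhl2b, needed for normal claudin and epcam expression in the fish inner ear, had 19.4, 33.5, 9.03 and 72.2 CPM in MLCs, against 0, 1.05 and 0 CPM in keratinocytes. It had 0.433 CPM in cLCs replicate 2 and 0 counts in the other 3 cLC, all neutrophil and all T cell libraries. Every MLC library was therefore above every other library of the series. The level in MLCs was modest, 4.04 to 26.4 TPM.

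Its paralogs showed the opposite layout. The gene grhl1, whose mouse counterpart keeps desmosomes and hair anchored, had 3.40, 0, 0 and 0 CPM in MLCs and 160, 88.7 and 30.4 CPM in keratinocytes, while the other 3 groups had 0 counts. The gene grhl3, needed for barrier formation in mice and for the periderm in fish, had 9.39, 0, 0 and 0 CPM in MLCs and 165, 47.2 and 64.9 CPM in keratinocytes. It had 1.95, 0 and 0 CPM in neutrophils and 0 counts in cLCs and T cells. For both genes the keratinocyte libraries did not overlap with any other group, and the share of all genes with this layout is not given.

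The zinc-finger repressor gene ovol1a had 1 count in MLCs replicate 1 (0.200 CPM), 0 counts in MLCs 2 to 4, and 214, 158 and 53.5 CPM in keratinocytes. Elsewhere it had 2 counts in cLCs replicate 2 (0.217 CPM) and 0 counts in the remaining libraries. The AP-2 gene tfap2a, a partner of tfap2c in ectoderm and neural crest, had 7.39, 0, 0 and 0 CPM in MLCs and 83.7, 142 and 18.5 CPM in keratinocytes, while cLCs had 7.18, 0, 0 and 0 CPM, and neutrophils and T cells had 0 counts. Both genes were above every other library in keratinocytes, by a small margin for tfap2a in keratinocytes replicate 3.

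The Krüppel-like gene klf4, an activator of late epidermal differentiation, had 20.6, 0, 2.62 and 0 CPM in MLCs and 113, 149 and 531 CPM in keratinocytes. It had 66.2, 50.4, 0 and 0 CPM in cLCs, 0 counts in neutrophils and 1 count in all T cells. It was the only gene of the 9 above 10 CPM in any library of cLCs, neutrophils or T cells. The 2 cLC libraries without a count were those with fewer than 6000 genes.

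The p53-family gene tp63 was near 0 in every group, keratinocytes included. It had 9.19, 0, 0.0582 and 0.0765 CPM in MLCs and 0, 3.01 and 0.799 CPM in keratinocytes, against 0.582, 0, 0 and 1.88 CPM in cLCs, 0.211, 0 and 0 CPM in neutrophils and 1.53, 0 and 0 CPM in T cells. All 5 groups overlapped. Another 4 genes of the basal layer were then looked up, a choice made after the tp63 values were seen. The basal keratin gene krtt1c19e, the hemidesmosome integrin genes itgb4 and itga6b and the collagen gene col17a1a had 2.80, 16.98, 31.8 and 0 CPM in that order in MLCs replicate 1, and 0 counts in the other MLC libraries. All 4 had 0 counts in the 3 keratinocyte libraries. The other collagen copy, col17a1b, had counts in 2 of the 4 MLC libraries, with at most 13.98 CPM, and in 1 of the 3 keratinocyte libraries, with 8.82 CPM.

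Library MLCs replicate 1 stood apart from the other 3 of its group. It was the shallowest library of the series, with 5837662 counts, yet had 15684 genes with a count. Library cLCs replicate 1 was the next shallowest, with 6158350 counts and 16200 genes with a count, and the only cLC library with a count of tfap2a (7.18 CPM). MLCs replicate 1 held all 9 genes, and it was the only MLC library with a count of grhl1, grhl3, ovol1a or tfap2a. Against the keratinocyte mean it had 3.65% of the grhl1 level, 10.1% of grhl3, 0.141% of ovol1a, 9.08% of tfap2a, 7.78% of klf4 and 2.23% of elf3. For tfap2c it had 174% of the keratinocyte mean. Keratinocyte markers in the same library stood at 1.78% of the keratinocyte mean for krt4, 12.3% for krt5, 0.570% for cldne and 0 for krt17. Over all 16 markers the summed level was 3617 to 11292 CPM in MLCs and 31055 to 107339 CPM in keratinocytes, against 238 to 2511 CPM in cLCs, 627 to 1143 CPM in neutrophils and 138 to 355 CPM in T cells. Each of MLCs 2 to 4, with 8087, 4617 and 3617 CPM, was thus above every cLC library. Over MLCs 1 to 4, krt4 had 465, 506, 59.98 and 27.2 CPM and krt5 had 1661, 273, 179 and 186 CPM. Of the 16 markers 4, krt17 among them, had 0 counts in all 4 MLC libraries, and the tight-junction gene cldne had 0 counts in MLCs 2 to 4. In single libraries 12, 7, 4 and 6 of the 16 had a count in MLCs 1 to 4, and 6, 5, 1 and 3 in cLCs 1 to 4. The sums thus rest on few genes in several libraries. For MLCs versus cLCs edgeR called 0 of the 13 markers tested, beside 0.0131% of all genes called higher. The part of keratinocyte RNA in the MLC values of the 9 genes was not tested.

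The makeup of each gene family was then compared in TPM. Of the summed TPM of grhl1, grhl2a, grhl2b and grhl3, grhl2b made up 47.0%, 100%, 100% and 95.7% in MLCs and 0%, 0.548% and 0% in keratinocytes. The means were 85.7% ± 25.8 (SD, n = 4) in MLCs and 0.183% ± 0.316 (SD, n = 3) in keratinocytes. An exact two-sided permutation test gave p = 0.0571 (n = 4 and 3), the smallest p this design allows. Of the 5 AP-2 genes, tfap2c made up 98.4% ± 3.14 (SD, n = 4) of the TPM in MLCs and 52.3% ± 13.2 (SD, n = 3) in keratinocytes, the rest there being tfap2a. The ranges were 93.7% to 100% in MLCs and 41.3% to 67.0% in keratinocytes, and the exact two-sided permutation p was again the smallest possible, 0.0571 (n = 4 and 3). These 2 shares were chosen after their values were seen, so their p-values are no independent evidence.

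**Figure D2:**
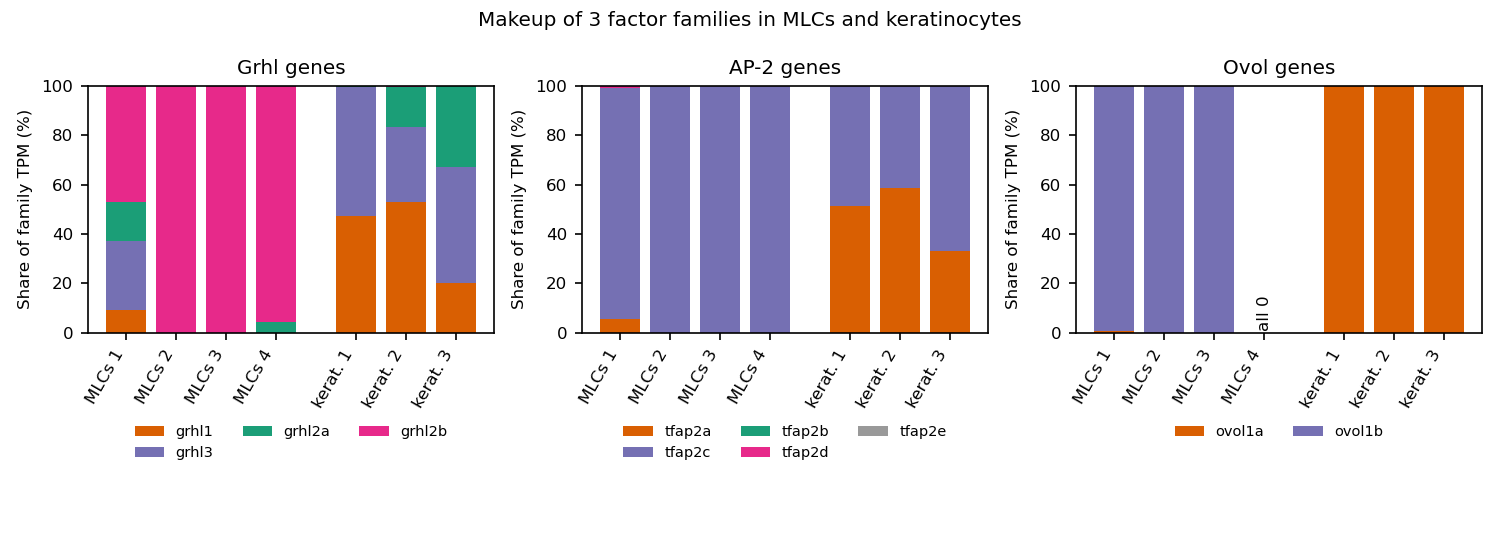
Share of the summed TPM of a gene family (vertical axis, %) held by each of its genes in the 4 MLC and 3 keratinocyte libraries, for Grhl, AP-2 and Ovol genes. MLC bars are mostly grhl2b, tfap2c and ovol1b, and keratinocyte bars mostly grhl1 and grhl3, a mix of tfap2a and tfap2c, and ovol1a. A library marked all 0 had no TPM of that family.

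Of the Ovol pair, MLCs replicate 4 had 0 TPM of both copies. The copy ovol1b had 15.5, 2.73, 3.75 and 0 TPM in MLCs and 0 TPM in every library of the other 4 groups, while ovol1a had 0.112, 0, 0 and 0 TPM in MLCs and 135, 82.1 and 28.8 TPM in keratinocytes. The remaining Grainyhead-like copy, grhl2a, had 2.49, 0, 0 and 1.19 TPM in MLCs and 0.904, 11.1 and 20.7 TPM in keratinocytes.

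Counts were then compared between groups with edgeR's quasi-likelihood test, fitted to all 17 libraries and 15247 genes, and a gene was called where its p, adjusted by Benjamini-Hochberg over these 15247, was under 0.05. All 9 genes passed the filter on low counts, which was run over all 5 groups. With only the libraries of the groups compared, fewer passed. These were 4 for MLCs versus cLCs and 3 for MLCs versus neutrophils and versus T cells. For keratinocytes versus cLCs, neutrophils or T cells 7 passed, and for MLCs versus keratinocytes 9. The spread between libraries of a group was wide, with a common biological coefficient of variation of 2.02. Comparisons that share a group are not independent of each other.

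MLCs against cLCs compares cells of the same reporter line. The edgeR test called 0 of the 9 genes, against 0.0131% of all tested genes called higher and 0.157% called lower. Of the 9, 5 had an unadjusted p under 0.05 (grhl1, grhl2b, grhl3, elf3 and tfap2c), against 12.8% of all tested genes. For grhl1 and grhl3 all MLC counts, 17 and 47, were in replicate 1, and both genes passed the filter only through keratinocytes. The mean of elf3 was 172 ± 112 CPM in MLCs and 1.27 ± 2.55 CPM in cLCs (SD, n = 4 each), with a log2 fold change of 7.08 (SE 1.92, adjusted p = 0.168 by edgeR). The mean of tfap2c was 218 ± 103 CPM in MLCs and 3.41 ± 3.98 CPM in cLCs (SD, n = 4 each), with a log2 fold change of 6.004 (SE 1.99, adjusted p = 0.248 by edgeR). For grhl2b the means were 33.5 ± 27.7 CPM in MLCs and 0.108 ± 0.217 CPM in cLCs, with a log2 fold change of 8.19 (SE 3.13, adjusted p = 0.301 by edgeR). All 4 MLC libraries were above all 4 cLC libraries for these 3 genes, as for 7.80% of all tested genes. DESeq2 called these 3 genes higher in MLCs (adjusted p = 0.00417 for elf3, 0.00956 for tfap2c and 0.0128 for grhl2b), and so did limma on log2(TPM + 1). The shares of all genes called higher were 4.29% by DESeq2 and 5.49% by limma. Without cLCs replicate 2, the only cLC library with counts of elf3, edgeR called 1 gene, elf3, higher, against 0.167% of all genes called higher. With the replicate number as a block, edgeR called elf3 alone of the 9, higher in MLCs. Of all 15247 genes 126 were then called higher and 147 lower. Over the 8 settings other than leaving out 1 library, elf3 was called in 4. In the other direction klf4 had a mean of 5.80 ± 9.93 CPM in MLCs and 29.1 ± 34.3 CPM in cLCs, with an adjusted p of 0.837 by edgeR.

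In MLCs against keratinocytes, 1 of the 9 genes, ovol1a, was called and was lower in MLCs, against 1.44% of all tested genes called higher and 0.472% called lower. Its mean was 0.0499 ± 0.0999 CPM in MLCs (n = 4) and 142 ± 81.5 CPM in keratinocytes (SD, n = 3), with a log2 fold change of -11.71 (SE 2.96, adjusted p = 0.0464 by edgeR). MLCs rest on 1 count here, and pooled over libraries the keratinocyte level was 8049 times theirs, with a 95% exact counting interval of 1444 to 317971. The call was lost when any MLC, keratinocyte or T cell library, or cLCs replicate 1 or 2, was left out (adjusted p = 0.0568 to 0.184), and the intervals cover counting error only.

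The other 8 genes were not called between these groups. Means of grhl1 were 0.849 ± 1.70 CPM in MLCs and 93.0 ± 64.9 CPM in keratinocytes, and those of grhl3 were 2.35 ± 4.69 CPM in MLCs and 92.5 ± 63.7 CPM in keratinocytes. The mean of elf3 in MLCs was 0.120 of that in keratinocytes (1434 ± 355 CPM), with a log2 fold change of -3.06 (SE 1.64, adjusted p = 0.332 by edgeR). The mean of grhl2b was 33.5 ± 27.7 CPM in MLCs and 0.349 ± 0.604 CPM in keratinocytes, where it rests on 8 counts in replicate 2, with a log2 fold change of 6.58 (SE 3.33, adjusted p = 0.301 by edgeR). For tfap2c the MLC mean was 1.76 times the keratinocyte mean (123 ± 54.4 CPM), with a log2 fold change of 0.82 (SE 1.76, adjusted p = 0.984 by edgeR). On log2(TPM + 1), limma called 7 of the 9, with grhl2b higher in MLCs (log2 fold change 3.28 on that scale, adjusted p = 0.000143) and grhl1, grhl3, ovol1a, elf3, klf4 and tfap2a lower, against 5.93% of all genes called higher by limma and 6.68% called lower. DESeq2 called ovol1a alone, lower in MLCs, against 4.08% of all genes called lower.

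**Figure D3:**
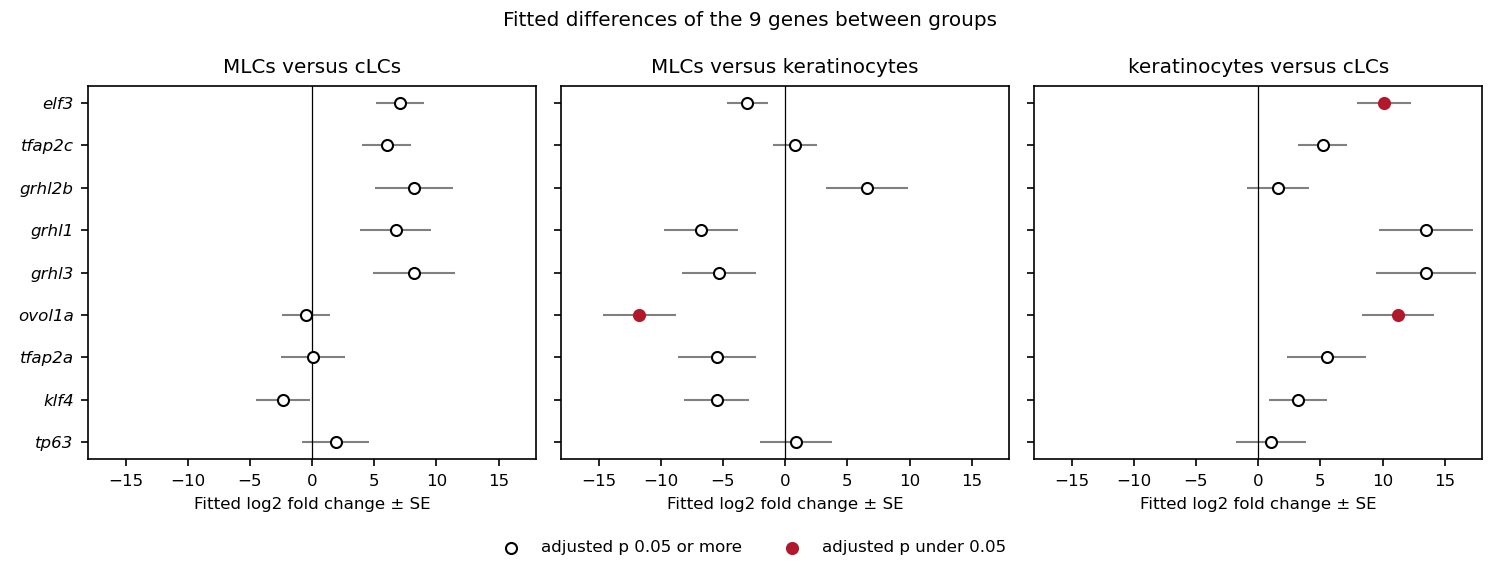
Fitted log2 fold change of each gene (horizontal axis, point) with its standard error (line) in 3 comparisons, where values above 0 are higher in the group named first and filled points have an adjusted p under 0.05. Filled points are ovol1a for MLCs versus keratinocytes and ovol1a and elf3 for keratinocytes versus cLCs. Values of grhl1 and grhl3 against cLCs depend on a prior count, because cLCs have 0 counts of them.

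MLCs against neutrophils gave 2 called genes, elf3 and tfap2c, both higher in MLCs, against 1.53% of all tested genes called higher and 0.367% called lower. Neutrophils had 0 counts, so each fold was computed against 3 counts summed over their libraries and is a minimum as to counting error only. Neutrophils replicates 2 and 3 had just 5071 and 4556 genes with a count. The mean of elf3 in MLCs was at least 3637-fold higher (adjusted p = 0.0167 by edgeR) and that of tfap2c at least 4603-fold higher (adjusted p = 0.0212). The elf3 call was lost without neutrophils replicate 2 or 3 (adjusted p = 0.0573 to 0.0646), and the tfap2c call without MLCs replicate 2 or any neutrophil library (0.0517 to 0.0904). MLCs against T cells gave the same 2 genes, against 0.774% of all tested genes called higher and 0.433% called lower, with elf3 at least 3466-fold higher (adjusted p = 0.0229 by edgeR) and tfap2c at least 4386-fold higher (adjusted p = 0.0295). The first call was lost without MLCs replicate 2 or any T cell library (0.0504 to 0.0959) and the second without any MLC or T cell library (0.0514 to 0.127). The gene grhl2b was at least 709-fold higher in MLCs than in neutrophils and at least 676-fold higher than in T cells, with adjusted p of 0.115 and 0.159 by edgeR.

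Keratinocytes against cLCs gave 2 called genes, both higher in keratinocytes, against 1.35% of all tested genes called higher and 2.02% called lower. The mean of elf3 was 1434 ± 355 CPM in keratinocytes (n = 3) and 1.27 ± 2.55 CPM in cLCs (SD, n = 4), with a log2 fold change of 10.13 (SE 2.19, adjusted p = 0.0146 by edgeR), and it stayed called without each library in turn. The log2 fold change of ovol1a was 11.23 (SE 2.88, adjusted p = 0.0374 by edgeR), with 2 counts in all cLCs and a pooled ratio of 4357 (95% exact counting interval 1206 to 35989), and its call was lost without any 1 keratinocyte or cLC library (0.0545 to 0.136). The genes grhl1 and grhl3, at 0 in cLCs, were at least 1697-fold and at least 1688-fold higher in keratinocytes with adjusted p of 0.0598 and 0.0733 by edgeR. The mean of klf4 was 264 ± 232 CPM in keratinocytes (n = 3) and 29.1 ± 34.3 CPM in cLCs (SD, n = 4), with a log2 fold change of 3.18 (adjusted p = 0.472 by edgeR). Without the 4 libraries of fewer than 6000 genes that log2 fold change was 2.104 (adjusted p = 0.567 by edgeR).

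Keratinocytes against neutrophils gave 4 called genes, all higher in keratinocytes, against 3.00% of all tested genes called higher and 1.85% called lower. The lower bounds of the fold were 30328 for elf3 (adjusted p = 0.00406 by edgeR), 2611 for tfap2c (0.0145), 2999 for ovol1a (0.0257) and 5591 for klf4 (0.0402). Only elf3 stayed called without each library in turn. The tfap2c call was lost without neutrophils replicate 2 (0.0520), the ovol1a call without keratinocytes replicate 1 or 2 or any neutrophil library (0.0674 to 0.0859), and the klf4 call without cLCs replicate 1 or 2 or any keratinocyte or neutrophil library (0.05002 to 0.116). Keratinocytes against T cells gave 3 called genes, all higher in keratinocytes, against 1.76% of all tested genes called higher and 1.57% called lower. These were elf3 (at least 28898-fold, adjusted p = 0.00520 by edgeR), tfap2c (at least 2488-fold, 0.0175) and ovol1a (at least 2858-fold, 0.0323). Without any 1 T cell library tfap2c was lost (0.0702 to 0.0771), and without any keratinocyte or T cell library ovol1a was lost (0.0593 to 0.153).

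MLCs and keratinocytes were also set jointly against cLCs, neutrophils and T cells, each group's log mean having equal weight. All but tp63, 8 of the 9 genes, were called higher, against 8.32% of all tested genes called higher and 2.90% called lower. The contrast and the 9 genes were chosen with earlier results of these data known, so this count is no independent evidence. The smallest adjusted p values by edgeR were 6.7e-05 for elf3 (log2 fold change 13.49, SE 1.63) and 0.000245 for tfap2c (log2 fold change 11.42, SE 1.64), the 2 genes high in both groups. Neutrophils and T cells had 0 counts of both, so these fold changes depend on a prior count. The same holds for other fold changes of this contrast where a group had 0 counts. Over libraries the means were 713 against 0.509 CPM for elf3 and 177 against 1.36 CPM for tfap2c. The other 6 called genes had adjusted p of 0.00598 (grhl1), 0.00918 (klf4), 0.0110 (ovol1a), 0.0140 (grhl2b), 0.0144 (grhl3) and 0.0220 (tfap2a). A gene high in only 1 of the 2 groups can be called in this contrast, and that holds for these 6. For klf4 the mean in cLCs (29.1 ± 34.3 CPM) was even above that in MLCs (5.80 ± 9.93 CPM), while neutrophils had 0 counts and T cells 1. Without MLCs replicate 1 the calls were 4 (grhl2b, elf3, klf4 and tfap2c), against 5.50% of all genes called higher, since the other MLC libraries have 0 counts of grhl1, grhl3, ovol1a and tfap2a and the contrast then has no finite value for them (adjusted p = 1.00). Without keratinocytes replicate 2 grhl2b was lost in the same way. The tfap2a call was also lost without neutrophils replicate 2 or 3 or any T cell library, with adjusted p from 0.0515. Without the 4 libraries of fewer than 6000 genes 5 were called, grhl1, ovol1a, elf3, klf4 and tfap2c, against 2.75% of all genes called higher.

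Across the 17 libraries the 9 genes fell into the groupings already seen. As a description over points that share cell types, Pearson's r of log2(CPM + 1) was 0.981 for grhl1 with ovol1a, 0.973 for grhl1 with grhl3, 0.909 for elf3 with tfap2c and -0.184 for grhl2b with ovol1a. The genes most like each of the 9 were sought among 4342 tested genes with a mean of at least 50 CPM in some group. For grhl2b they included dachc (r = 0.980), a dachshund-family factor, and kctd3 (0.969). Their means were 97.6 and 81.5 CPM in MLCs and 0 in keratinocytes, so the likeness is that of genes high in MLCs.

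For elf3 the most alike were arhgap28 (r = 0.984), ms4a17a.1 (0.981) and arhgef38 (0.980), and for tfap2c the chloride channel gene ano1 (0.991), rassf7b (0.990) and the serine protease inhibitor gene spint2 (0.988). The mean of ano1 was 355 CPM in MLCs and 316 CPM in keratinocytes, against 2.58 CPM in cLCs and 0 in neutrophils and T cells. Genes alike to those high in keratinocytes were nqo1 (0.999), myzap (0.998) and the keratin gene krt1-19d (0.997) for grhl1, the envoplakin gene evplb (0.988), the transglutaminase gene tgm5l (0.984) and icn2 (0.983) for grhl3, and eps8l1a (1.000), the transglutaminase gene tgm1 (0.998) and the actin-bundling gene pls3 (0.997) for ovol1a.

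For tfap2a the most alike were cdc42ep5 (r = 0.977), sorbs3 (0.968) and tmprss13b (0.967), and for klf4 pla2g4f.1 (0.962), daam1a (0.956) and ptpn21 (0.955). Those for tp63 were heat-shock genes at lower r, hsp70.2 (0.667), hsp70l (0.648) and hsp70.1 (0.613). In MLCs replicate 1 hsp70.2 had 202 CPM, against at most 0.0653 CPM in the other MLC libraries, and its levels were 3.59, 688 and 419 CPM in keratinocytes 1 to 3. Its highest level was 2038 CPM in cLCs replicate 1.

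Beyond the 9 genes, 47 other transcription factors of ectoderm or skin were matched, of which 36 passed the filter. In the joint comparison 11 of the 36 were called higher and 1, cebpb, lower, beside 8.32% and 2.90% of all genes tested. Their median log2 fold change was 2.37, beside 7.98 for the 9 genes and 0.19 for all genes tested. This list too was chosen with earlier results of these data known, so its counts are no independent evidence. The Krüppel-like gene klf5l had 33.6, 19.2, 65.5 and 30.4 TPM in MLCs and 170, 55.0 and 118 TPM in keratinocytes, against at most 0.146 TPM in the other groups (adjusted p = 9.6e-05 by edgeR). The homeobox gene dlx3b had 26.4, 25.9, 16.4 and 8.14 TPM in MLCs and 133, 59.8 and 24.3 TPM in keratinocytes, against at most 0.380 TPM elsewhere (adjusted p = 0.000937 by edgeR). Both were thus present in all libraries of both groups, as elf3 and tfap2c were.

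Some other called factors had the layout of ovol1a. The gene cebpd had 7.70, 0.422, 0 and 0.0822 TPM in MLCs and 75.0, 128 and 202 TPM in keratinocytes, against at most 0.0685 TPM elsewhere (adjusted p = 0.00156 by edgeR). The forkhead gene foxq1a, with 5.12, 0, 0 and 0 TPM in MLCs and 761, 121 and 129 TPM in keratinocytes, had 0 TPM in the other groups. The remaining called genes were klf5a, ehf, znf750, klf17, dlx4b, gata3 and grhl2a. Of the same 36, MLCs against cLCs and MLCs against keratinocytes gave 1 call each, cebpa, which was lower in MLCs, beside 0.157% and 0.472% of all genes called lower. Keratinocytes against cLCs gave 3 (klf5l, foxq1a and cebpd), all higher, beside 1.35% of all genes. The gene cebpa, a factor of both myeloid cells and keratinocytes in mammals, had 0.216 ± 0.390 CPM in MLCs (SD, n = 4), against 675 ± 584 CPM in keratinocytes (n = 3) and 224 ± 129 CPM in cLCs (n = 4), with adjusted p of 0.00524 and 0.0442 by edgeR.

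**Figure D4:**
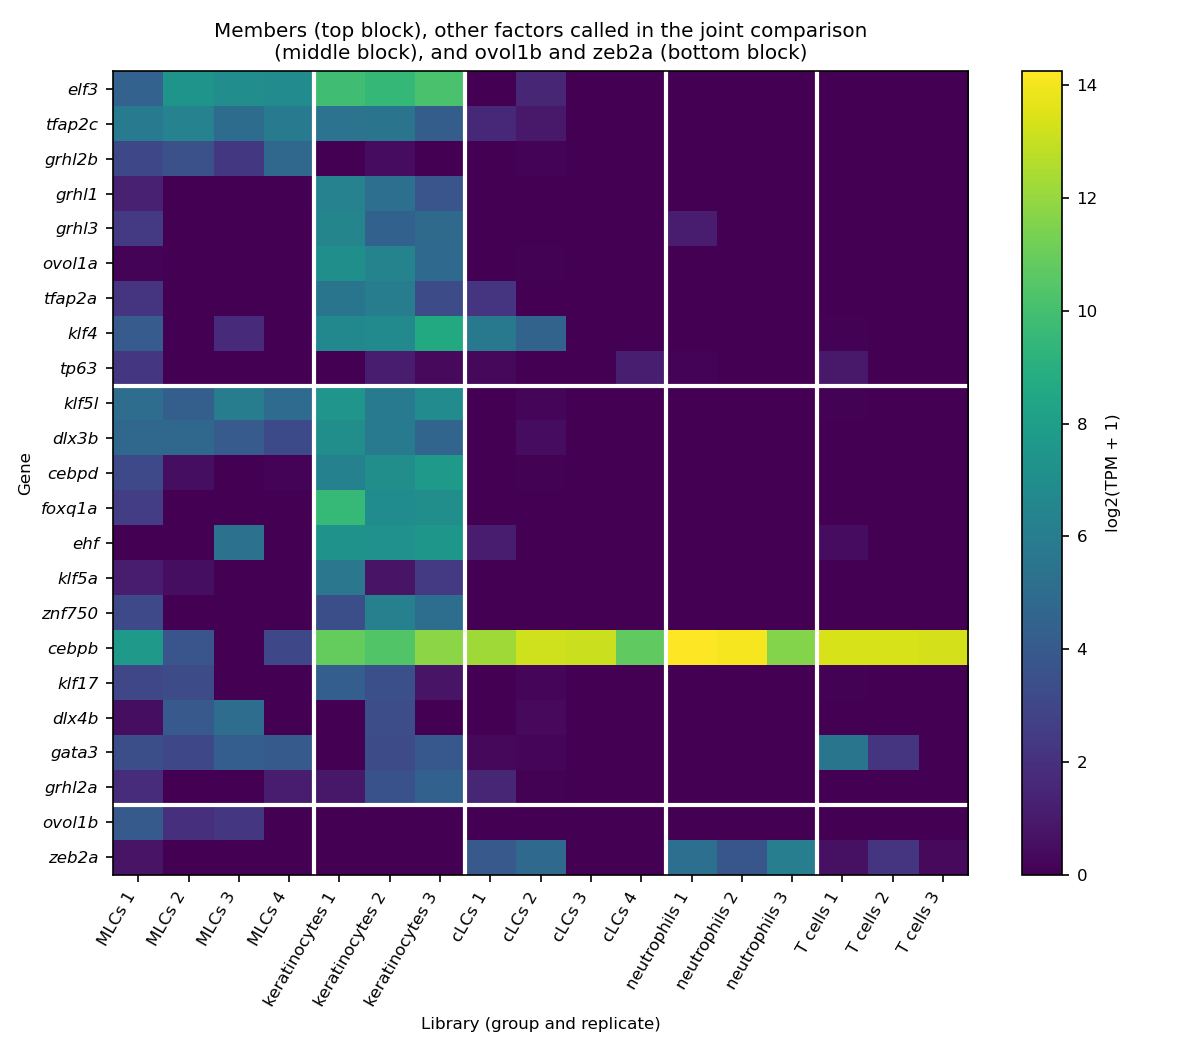
Level in log2(TPM + 1) (color) of the 9 genes, of the other ectodermal factors called in the joint comparison, and of ovol1b and zeb2a (rows, in 3 blocks) in the 17 libraries (columns, by group). The rows of elf3, tfap2c, klf5l and dlx3b are lit in all MLC and keratinocyte libraries, and the row of cebpb is brightest outside these groups.

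Repressors that oppose the epithelial state in other vertebrates (zeb, snail and twist genes) numbered 12 matched and 3 tested. Of the 3, 1, zeb2a, was called lower in the joint comparison (adjusted p = 0.0299 by edgeR). It had 4.39, 0, 0 and 0 CPM in MLCs and 0.154, 0 and 0 CPM in keratinocytes, against 93.1, 320, 0 and 0 CPM in cLCs, 183, 49.7 and 276 CPM in neutrophils and 2.19, 12.4 and 1.12 CPM in T cells. The 2 cLC libraries at 0 were again those with fewer than 6000 genes.

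Genes that such factors activate in other vertebrates, among them junction, keratin and protease inhibitor genes, numbered 48 matched and 44 tested. In the joint comparison 32 of the 44 were called higher, beside 8.32% of all genes tested, with a median log2 fold change of 9.18, beside 0.19 for all genes tested. The list and the contrast were chosen with earlier results of these data known, so this count is no independent evidence. Whether the 9 factors act on these genes here was not tested. E-cadherin, the adhesion molecule encoded by cdh1, had 749, 1539, 1250 and 807 CPM in MLCs and 1243, 1001 and 1234 CPM in keratinocytes, against at most 26.3 CPM elsewhere (adjusted p = 9.5e-06 by edgeR). The other 3 leading examples were the plakophilin gene pkp3a (2.0e-05), the occludin gene oclnb (2.7e-05) and spint2 (4.4e-05). In MLCs against cLCs 1 of the 44, cdh1, was called, and it was higher in MLCs (log2 fold change 6.92, adjusted p = 0.0482 by edgeR), beside 0.0131% of all genes called higher. In keratinocytes against cLCs 16 were called, all higher, beside 1.35% of all genes. In MLCs against keratinocytes 4 were called, with tgm1, krt17 and pkp1b lower in MLCs and prom2 higher, beside 0.472% of all genes called lower and 1.44% called higher.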

How the data were processed

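Per the submitters' processing notes, reads were processed with STAR and featureCounts on danRer10. Tool versions, annotation release and strand setting were not given in the sources used here. Reads of overlapping antisense genes therefore cannot be told apart. The deposited count table holds whole read counts per Ensembl gene, and the deposited TPM table holds the authors' length-scaled transcript abundance. Of the 35572 lines of each table, 455 repeated an earlier identifier and were dropped. Grouping follows the sample titles.

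The test was that of edgeR 4.0.16 (R 4.3.3; TMM factors, filter on low counts by group, quasi-likelihood fit of all 17 libraries with 1 mean per group, 12 residual degrees of freedom), and p was adjusted by Benjamini-Hochberg over 15247 genes. The SE of a log2 fold change is its size divided by the square root of F. CPM are given as mean ± SD. For a group at 0 counts the fold is a minimum, computed against a floor of 3 counts summed over that group. The floor came to 0.0593 CPM in MLCs, 0.0808 in keratinocytes, 0.0548 in cLCs, 0.0473 in neutrophils and 0.0496 in T cells. Reads were amplified with no molecular identifiers, so floors and intervals cover counting error only. Simulated counts were fitted for MLCs versus keratinocytes only, and the outcome is not given here. Changes were put only into genes above a minimum mean CPM, and no gene was set to 0 in a group. That simulation therefore does not bear on genes at 0 counts in a group.

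Each result was recomputed with DESeq2 1.42.0, with RLE scaling, with no filter, with at least 10 CPM in 3 libraries, with limma 3.58.1 with a trend on log2(TPM + 1), with only the groups compared, with the replicate number as a block, without the 4 libraries of fewer than 6000 genes, and without each library. The members, gene lists and comparisons were chosen with earlier results of these data known. Named are all 9 genes, for each list up to 4 examples with the smallest joint adjusted p, the marker genes mpeg1.1, krt4, ptprc, lyz and lck, and for each gene the 3 with the highest Pearson correlation of log2(CPM + 1). Other genes were named after their values were seen, and 2 genes that these rules would name are not reported here. Permutation tests used scipy 1.17.1. No sequence or coordinate is given, since the reference used here is of another build.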

Additional observations from a re-analysis of the deposited data

Results flagged for a closer look

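In all, 10 values lay far from the other 3 libraries of their group of 4, by the gap to the nearest library as a share of the group's range (16 groups checked). Of these, 6 were in MLCs replicate 1, with 9.19 CPM of tp63, 3.40 of grhl1, 9.39 of grhl3, 0.200 of ovol1a, 20.6 of klf4 and 7.39 of tfap2a. Another 3 were in cLCs replicate 2, with 0.433 CPM of grhl2b, 0.217 of ovol1a and 5.09 of elf3. The last was tfap2a in cLCs replicate 1, with 7.18 CPM. In 8 of the 10 cases the other 3 libraries had 0 counts, so that the gap is the whole range whatever the count. Chance flags about 1 in 20 groups where values follow a normal distribution. That rate does not hold for these 8 cases, and whether the CPM of the other groups follow such a distribution was not tested.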

How the results depend on the processing

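No call turned direction under any alternative. Of the 22 called results for single genes, 160 of 168 values under the settings other than leaving out 1 library kept the call, and 305 of 374 values without 1 library did. The number of the 9 genes called changed by more than 1.5 times as follows, and the cause was not tested. With DESeq2 it was 3 for MLCs versus cLCs (0 as reported), 4 for MLCs versus neutrophils (2), 4 for MLCs versus T cells (2), 5 for keratinocytes versus cLCs (2) and 7 for keratinocytes versus T cells (3). All genes called higher by DESeq2 also rose, in that order to 605, 2394, 1036, 1081 and 1354 of 13836 to 14361 tested. As reported they were 2, 234, 118, 206 and 268 of 15247. With no filter on low counts the number of the 9 was 1, 4 and 6 for MLCs versus cLCs, keratinocytes versus cLCs and keratinocytes versus T cells. All genes called higher were then 141, 384 and 473 of 25323. With limma on log2(TPM + 1) the number of the 9 was 3 for MLCs versus cLCs and 7 for MLCs versus keratinocytes (1) and for keratinocytes versus cLCs, neutrophils (4) and T cells. Of all 14575 genes tested by limma, 800 were called higher for MLCs versus cLCs. For MLCs versus keratinocytes 864 were called higher and 974 lower (219 and 72 as reported). For keratinocytes versus cLCs, neutrophils and T cells 1318, 1441 and 1214 were called higher (206, 457 and 268 as reported). With only the libraries of the groups compared the number of the 9 was 2 for MLCs versus keratinocytes, 4 for keratinocytes versus cLCs and 7 for keratinocytes versus T cells. For MLCs versus keratinocytes 426 of all 11438 genes were then called lower. For keratinocytes versus cLCs 301 of 10094 were called higher, and versus T cells 1070 of 10786. Without the 4 libraries with under 6000 genes the number of the 9 was 1 for MLCs versus neutrophils, 2 for keratinocytes versus neutrophils, 7 for keratinocytes versus T cells and 5 for the joint comparison (8). In that order 96, 165, 882 and 548 of all 19930 genes were then called higher. As reported these were 234, 457, 268 and 1268 of 15247. Leaving out each library in turn gave 0 to 1 of the 9 for MLCs versus cLCs and versus keratinocytes. MLCs had 0 to 2 against neutrophils and against T cells. Keratinocytes had 1 to 3 against cLCs and 1 to 4 against neutrophils and against T cells. The joint comparison had 4 to 8. All genes called higher then numbered 0 to 25 for MLCs versus cLCs. Against neutrophils MLCs had 37 to 405, and against T cells 0 to 214. For MLCs versus keratinocytes 15 to 113 were called lower. Keratinocytes had 83 to 290 called higher against cLCs, 128 to 722 against neutrophils and 51 to 390 against T cells. In the joint comparison 807 were called higher without MLCs replicate 1, where 4 of the 9 were.

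Replicate numbers were not taken to pair samples in the main fit. Over 31 pairs of libraries with the same number in different groups, the correlation of deviations from the group means was -0.0464 to 0.214 with a median of 0.0112. Between MLCs and cLCs, which share a line, it was 0.214, 0.0890, 0.0322 and 0.0494 for same-number replicates 1 to 4. With different numbers it was -0.1035 to 0.0377 here. Whether MLCs and cLCs of the same number were paired was not tested. With the replicate number as a block, 1 of the 9 was called for MLCs versus cLCs (elf3), 0 for MLCs versus keratinocytes and 7 for keratinocytes versus T cells. Of all 15247 genes, in that order, 126 were called higher, 177 lower and 508 higher (2, 72 and 268 as reported). RLE scaling left each of the 8 counts within 1.5 times. With TMM and RLE scaling the all-gene median log2 fold change was 0.30 and 0.08 for MLCs versus keratinocytes, -0.26 and 0 for keratinocytes versus cLCs, and -0.48 and -0.23 for keratinocytes versus T cells. With 0 counts in a library of this depth, levels up to 0.127 to 0.599 CPM would go unseen by counting error alone. That bound does not cover transcripts lost before sequencing. In cLCs replicates 1 and 2 klf4 had 66.2 and 50.4 CPM and zeb2a 93.1 and 320 CPM. Both had 0 counts in replicates 3 and 4, which had fewer than 6000 genes with a count. Whether transcripts were lost there was not tested.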
